A study of Homo sapiens with 32 samples.

Results

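The CADM and nectin genes encode cell adhesion molecules of the immunoglobulin superfamily, and 7 of them (CADM1, CADM3, CADM4, NECTIN1, NECTIN2, NECTIN3 and NECTIN4) were followed among the 17788 genes of the count table. Each was found through the Ensembl identifier that GENCODE release 44 pairs with its symbol. CADM3 was chosen by its measured count in the solvent libraries, where it was high in the JUNB-edited clones, and the other 6 were chosen by family. Its values in those libraries are therefore given as a description without a test.

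The 32 libraries came from MCF10A, an immortalized human mammary epithelial cell line. All clones grew from single cells after CRISPR/Cas9 editing. Clones 27 and 2 were JUNB wild type (WT), and clones 1 and 65 are labelled JUNB knock-out (mut). In mut, an extended deletion removed full-length JUNB while a smaller JUNB polypeptide remained. Each clone was given solvent (0.1% BSA in PBS), or 5 ng/ml TGFβ1 for 6, 24 or 72 h. With 2 replications of each clone, this made 8 groups of 4 libraries. The solvent libraries carry time 0 in their labels, and the methods of the study describe 72 h of solvent. By the study's account all samples were harvested at the same time after seeding. The times 6, 24 and 72 h are therefore lengths of TGFβ1 exposure. The culture medium was the same in all groups and held EGF, hydrocortisone, cholera toxin, insulin and horse serum. A library is named here by clone and replication, so that 27-2 is the second replication of clone 27. Since each genotype rests on 2 clones, a difference between genotypes cannot be told apart from a difference between clones.

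Library totals ran from 39702412 to 54651906 counts. In the 4 WT groups, 27-2 was the library least like the other 3 of its group (mean Pearson r of log2(CPM + 1), CPM being counts scaled to a common library total, across genes 0.992 to 0.993), while the other WT libraries lay between 0.994 and 0.996. JUNB was at 89.7 to 117 CPM in WT solvent and at 69.2 to 172 CPM in mut solvent, so gene-level counts did not separate the genotypes and did not check the deletion. The mut clones differed in solvent: clone 1 was at 69.2 and 77.5 CPM, below every WT library, and clone 65 at 127.7 and 172 CPM, over every WT library. All 7 mammary epithelial markers (EPCAM, CDH1, KRT5, KRT14, KRT17, KRT18, TP63) were present in every library, with a summed level of 5637 to 11110 CPM in WT and 8815 to 14600 CPM in mut. Of the Schwann cell markers, SOX10 stayed at or under 0.0482 CPM, although MBP lay at 39.3 to 80.4 CPM. PTPRC and CD3E, markers of leukocytes, reached at most 0.0498 CPM, CD14 lay at 2.29 to 28.1 CPM, and of the endothelial markers VWF, the one in the table, stayed at or under 0.140 CPM.

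Nectins form pairs with one another across cell borders and are held to the actin cytoskeleton by afadin (AFDN), next to the cadherins of the adherens junction. The CADM proteins, also called nectin-like molecules, bind each other in similar pairs but use protein 4.1 and membrane-associated guanylate kinases inside the cell in place of afadin. CADM3 and CADM4 are best known from the contacts of axons with Schwann cells, whereas the nectins are common in epithelia. TGFβ1 drives mammary epithelial cells into epithelial-mesenchymal transition (EMT), in which cell contacts are rebuilt.

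A model over all 32 libraries (limma-voom, two-sided, Benjamini-Hochberg over 14865 genes) tested 6 of the 7 members, and "called" below means an adjusted p under 0.05. CADM1 did not pass the filter on low counts. CADM3 passed it with the WT libraries alone as well, and none of the other tested members was chosen for its level. P-values measure the spread between libraries, 4 per group from 2 clones.

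CADM3 (ENSG00000162706, chr1:159171609-159203313, plus strand, GRCh38) had far more reads in mut than in WT at every time. In solvent it stood at 0.839, 3.26, 1.13 and 2.14 CPM in WT libraries 27-1, 27-2, 2-1 and 2-2. In mut libraries 1-1, 1-2, 65-1 and 65-2 it stood at 68.5, 66.7, 109.5 and 102.3 CPM. The lowest mut library lay over the highest WT library, and both replications of clone 65 lay over both of clone 1. The fitted difference was 5.76 on the log2 scale, a 54.3-fold higher level, which restates how the gene was chosen.

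The TGFβ1 libraries were not used in that choice, although they came from the same clones. At 6 h CADM3 was at 1.79, 3.36, 1.49 and 2.76 CPM in WT and at 84.1, 86.7, 117.9 and 118.3 CPM in mut. At 24 h the WT libraries held 2.42, 7.96, 2.49 and 5.53 CPM and the mut libraries 106.9, 98.3, 129.6 and 120.7 CPM. At 72 h they held 2.13, 9.87, 6.53 and 16.2 CPM in WT against 107.2, 98.4, 119.2 and 120.2 CPM in mut. The genotypes did not overlap at any time. The log2 fold change of mut over WT was 5.46 ± 0.50 (SE, n = 4 libraries per group, limma-voom adjusted p = 5.22e-09) at 6 h, 4.83 ± 0.40 (adjusted p = 9.74e-10) at 24 h and 4.01 ± 0.34 (adjusted p = 7.03e-10) at 72 h. CADM3 stayed called at these 3 times under every alternative run.

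CADM3 was higher late in TGFβ1 treatment in WT. WT libraries at 72 h were 3.0-fold over those at 6 h (log2 fold change 1.59 ± 0.57, limma-voom adjusted p = 0.0344), and the level was higher in 4 of 4 culture series. The ranges still overlapped, and the call was lost without 27-1 (adjusted p = 0.0851), 2-1 (0.0864) or 2-2 (0.0612) at 6 h, without 27-2 (0.0824) or 2-2 (0.121) at 72 h, and without the whole series 27-2 (0.0691). In mut the same step was 0.14 ± 0.21 (adjusted p = 0.709). The test of the difference between the genotypes gave -1.45 ± 0.61 (adjusted p = 0.155) without pairing. With each culture series as a block it gave -1.68 (adjusted p = 0.000138), without WT 27-1 at 72 h it gave -2.01 (adjusted p = 0.0216), and DESeq2 gave -1.85 (adjusted p = 0.0427). Only these 3 of 27 alternatives called the difference. The other 24 did not, with an adjusted p of 0.173 under TMM scaling and of up to 0.345. Against solvent, the fitted CADM3 levels at 6, 24 and 72 h differed by 0.56, 1.35 and 2.14 on the log2 scale in WT and by 0.25, 0.42 and 0.39 in mut, in the same direction in 4 of 4 series each, and these values carry no test.

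**Figure D1:**
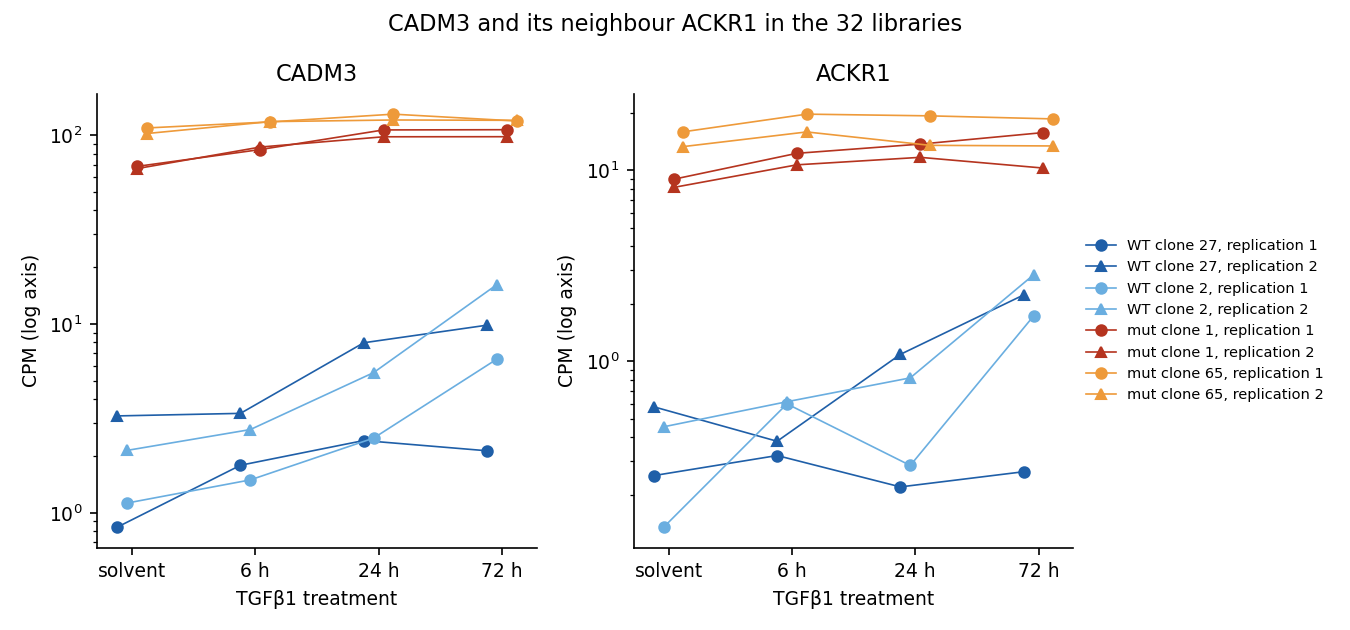
CPM on a log axis of CADM3 (left) and ACKR1 (right) by TGFβ1 treatment, where each line joins the 4 libraries of a clone and replication. The mut lines lie between 66.7 and 129.6 CPM for CADM3 and stay over every WT line, whose highest library is at 16.2 CPM.

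In WT cells the second replication of each clone held more CADM3 than the first at every time. Within replication 1 the mean log2 difference of mut over WT was 6.41 in solvent and 4.90 at 72 h. Within replication 2 it was 4.94 and 3.10, so the size of the difference varied with the replication while its direction did not. These values have 2 libraries per group and no test.

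The promoter of CADM3 is shown because AP-1, the factor family of JUNB, binds the letters TGANTCA. The sequence is from RefSeq (GRCh38.p14, chr1:159171365-159171664, plus strand) and covers 250 bases before the annotated start and 50 from it. It was searched on both strands for TGANTCA, for the cyclic AMP response element TGACGTCA and for CAGGTG, the E-box letters bound by SNAIL and ZEB factors. None of these was in the window, and the sequence is therefore printed without capitals.
CADM3: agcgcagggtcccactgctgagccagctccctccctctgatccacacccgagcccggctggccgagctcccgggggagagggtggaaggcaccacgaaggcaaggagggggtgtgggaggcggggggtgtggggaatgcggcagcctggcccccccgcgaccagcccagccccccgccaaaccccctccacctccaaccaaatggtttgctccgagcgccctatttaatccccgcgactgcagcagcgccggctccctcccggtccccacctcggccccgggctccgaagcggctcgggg
TGANTCA was found in 7.76% of the 27305 promoters of the same length, TGACGTCA in 1.98% and CAGGTG in 20.6%. The absence of a match holds for this window alone.

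The gene next to CADM3 on the same strand, ACKR1, which encodes the Duffy chemokine receptor, followed CADM3 closely. ACKR1 starts 1561 bp after the end of CADM3. It had 0.252, 0.577, 0.135 and 0.453 CPM in WT solvent and 8.97, 8.13, 15.9 and 13.3 CPM in mut solvent, with no overlap. The log2 fold change was 5.16 ± 0.83 (n = 4 per group) in solvent. Since ACKR1 follows CADM3, which was chosen in those libraries, this value is a description with no test. At 72 h the log2 fold change was 3.41 (limma-voom adjusted p = 1.99e-06). For every 100 CADM3 counts, a mut library held 10.4 to 16.7 ACKR1 counts (median 13.1), and a WT library held 9.09 to 40 (median 17.6). Across the 32 libraries the log2 CPM of both genes correlated with r = 0.987 (0.892 in the 16 WT libraries, 0.871 in the 16 mut libraries), where libraries share clones and depth. Whether reads that run on from CADM3 contribute to the ACKR1 count was not tested.

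Of the other tested genes within 500 kb of CADM3, none was called between genotypes in solvent by limma-voom. AIM2, which overlaps CADM3 on the opposite strand, averaged 0.0868 CPM in the WT solvent libraries and 0.0737 CPM in those of mut. The library kit did not keep strand, so reads in the shared stretch cannot be assigned from the strand. IFI16, an interferon-inducible DNA sensor 116453 bp before CADM3, was abundant and showed a log2 difference of 0.06 ± 0.09 (limma-voom adjusted p = 0.737), and PYHIN1 showed -0.54 (adjusted p = 0.206). IFI16 was called higher in mut later, by 0.45 ± 0.09 at 24 h (adjusted p = 0.000184) and by 0.39 ± 0.09 at 72 h (adjusted p = 0.000797). FCER1A, the remaining gene of the table within 500 kb, had no count in solvent.

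A window of 1 Mb was added after DUSP23 had been seen to follow CADM3. It held 25 other genes of the table, of which 19 passed the filter, and their median log2 fold change in solvent was -0.01. Of the 19, 4 had a limma-voom adjusted p under 0.05 and were higher in mut, and 0 were lower (12.7% of all genes called). These were ACKR1, DUSP23, CRP and IGSF9. Since the window was set after values were seen, this count is a description. DUSP23, a dual-specificity phosphatase, averaged 50.8 CPM in WT solvent and 99.7 CPM in mut solvent, and since its likeness to CADM3 set the window, this is a description with no test. CRP reached 0.169 CPM on average in mut and had no count in WT solvent, so it passed the filter through the libraries where it was present. IGSF9, itself an immunoglobulin superfamily adhesion gene, was higher in mut solvent by 0.88 ± 0.17 on the log2 scale. It was named after its value was seen, so this too is a description with no test.

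**Figure D2:**
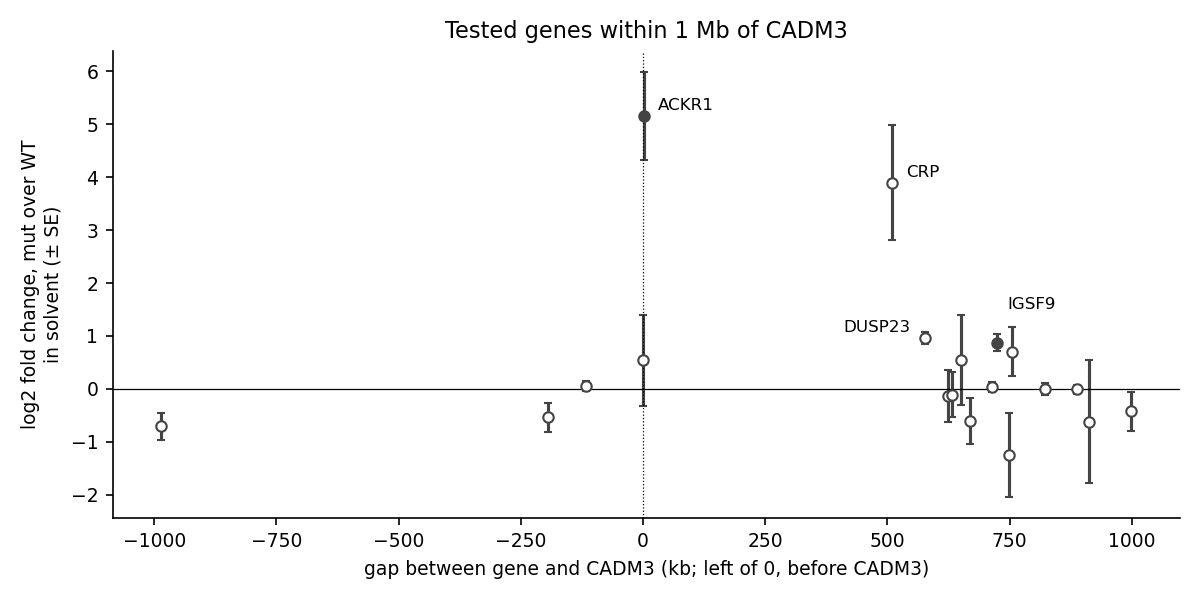
log2 fold change of mut over WT in solvent (± SE, 4 libraries per group) for the 19 genes within 1 Mb of CADM3 that passed the filter, placed by their gap to CADM3 in kb. ACKR1 at 5.16, IGSF9 at 0.88, DUSP23 and CRP each had a limma-voom adjusted p under 0.05 but are given as a description in the text. ACKR1 and IGSF9 are drawn filled and DUSP23 and CRP open, so open points here do not mean a higher adjusted p.

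CADM4 (ENSG00000105767, chr19:43622368-43639850, minus strand), a partner of CADM3 at axon and Schwann cell contacts, was at or under 9.55 CPM in every library. It was at 5.24, 6.97, 8.56 and 9.55 CPM in WT solvent and at 8.38, 7.97, 7.62 and 8.51 CPM in mut solvent. The mut libraries lay inside the WT range. The genotype difference was not called at any time, and the log2 values were 0.15, 0.23, -0.02 and -0.06 in solvent and at 6, 24 and 72 h.

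After 72 h of TGFβ1 the mut libraries held 6.13, 4.41, 5.44 and 8.36 CPM of CADM4. All but 65-2 lay below the solvent range, and the log2 change was -0.47 ± 0.16 (n = 4 per group, limma-voom adjusted p = 0.0356). The call was lost under trimmed mean (TMM) scaling (adjusted p = 0.0840), with the replications of a clone summed (0.158), and without 1-1 (0.0739), 1-2 (0.0534) or 65-2 (0.0827) in solvent or 1-1 (0.0546), 1-2 (0.192) or 65-1 (0.0760) at 72 h. Nor did it hold by edgeR (adjusted p = 0.155), by DESeq2 (0.133), with only the groups compared in the fit (0.0774) or without series 1-2 (0.256). From 6 to 72 h the mut change was -0.49 ± 0.16 (adjusted p = 0.0361), and it too was lost without 1-2 (0.0583), 65-1 (0.0561) or 65-2 (0.101) at 6 h or 1-1 (0.0604), 1-2 (0.192) or 65-1 (0.0813) at 72 h. Clone sums (adjusted p = 0.169), edgeR (0.0824), DESeq2 (0.0549), the groups alone (0.0846) and leaving out series 1-2 (0.265) lost it as well. In WT at 72 h the value was -0.26 ± 0.17 (adjusted p = 0.207, and 0.0271 without WT solvent 27-1).

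CADM1 (ENSG00000182985, chr11:115169218-115504957, minus strand), the epithelial tumour suppressor of the family, was close to absent. It had 5 counts in all, 1 count in each of 5 libraries. A count of 0 allows up to 3 counts, which is 0.0549 to 0.0756 CPM at these depths, and no fold was computed. Such intervals cover counting error only.

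NECTIN1 (ENSG00000110400, chr11:119623408-119729200, minus strand), an afadin-bound nectin that pairs with NECTIN3 and serves herpes simplex virus as an entry receptor, was the most abundant nectin. It was at 245.5, 211.8, 298.2 and 266.0 CPM in WT solvent and at 192.5, 176.7, 212.4 and 197.6 CPM in mut solvent. WT 27-2 and mut 65-1 were nearly equal, so the ranges touched. At 72 h the WT libraries held 189.4, 192.0, 214.6 and 197.0 CPM and the mut libraries 159.5, 151.5, 174.9 and 172.4 CPM, with no overlap.

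NECTIN1 was called lower in mut at all times, although only the call at 6 h held with the replications of a clone summed. The log2 fold change of mut over WT was -0.38 ± 0.09 (n = 4 per group, limma-voom adjusted p = 0.00395) in solvent, -0.43 (adjusted p = 0.000682) at 6 h, -0.30 (adjusted p = 0.00960) at 24 h and -0.27 (adjusted p = 0.0168) at 72 h. Clone sums gave adjusted p = 0.0622 in solvent, 0.0743 at 24 h and 0.104 at 72 h. The call at 72 h was also lost without WT 2-1 (adjusted p = 0.0616) or mut 1-2 (0.0593) at 72 h. NECTIN1 also fell with TGFβ1 in WT, by 0.36 on the log2 scale at 72 h against solvent (adjusted p = 0.00137) and by 0.38 from 6 to 72 h (adjusted p = 0.00154). At 24 h it did not (-0.13, adjusted p = 0.220, 0.0378 without WT solvent 27-2, and a value of 0.05 under TMM scaling). The median of all genes was itself -0.19 at 72 h in WT under library-size scaling (-0.18 at 24 h) and -0.03 under TMM scaling, where NECTIN1 was at -0.19 with adjusted p = 0.0537.

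In mut at 72 h NECTIN1 was at -0.24 ± 0.09 (adjusted p = 0.0460), lower in 4 of 4 series without overlap. TMM scaling gave -0.17 (adjusted p = 0.157), clone sums gave -0.25 (adjusted p = 0.190), and the call was lost without mut 1-1 (0.0763), 65-1 (0.136) or 65-2 (0.0952) in solvent or 1-1 (0.0968) or 1-2 (0.143) at 72 h. From 6 to 72 h the mut value was -0.22 (adjusted p = 0.0934, and -0.21 with 0.00820 when series were blocked). The difference between the genotypes in the response was 0.11 ± 0.13 at 72 h (adjusted p = 0.618).

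NECTIN2 (ENSG00000130202, chr19:44846175-44889223, plus strand), an afadin-bound nectin and a ligand of the immune receptors TIGIT and DNAM-1, had a TGFβ1 response that was called different between the genotypes. In solvent it was at 47.5, 41.3, 43.3 and 43.7 CPM in WT and at 50.1, 48.6, 51.5 and 51.8 CPM in mut. At 6 h it was at 54.8, 50.5, 43.1 and 46.4 CPM in WT and at 54.2, 53.0, 59.2 and 59.8 CPM in mut. Up to this time the mut libraries lay at or over most WT libraries.

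The order turned later. At 24 h WT held 60.7, 52.2, 55.0 and 54.5 CPM, all over the WT solvent libraries, and mut held 49.4, 54.6, 47.9 and 49.9 CPM. At 72 h WT held 57.2, 48.3, 54.8 and 56.7 CPM, again over WT solvent without overlap, and mut held 43.1, 44.2, 45.2 and 51.8 CPM. In mut, 3 of the 4 libraries at 72 h lay below the mut solvent range.

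NECTIN2 rose in WT by a log2 fold change of 0.34 ± 0.07 at 24 h (n = 4 per group, limma-voom adjusted p = 0.000291) and of 0.30 ± 0.07 at 72 h (adjusted p = 0.00118), in 4 of 4 series. In mut the values were 0.00 ± 0.07 (adjusted p = 0.981) and -0.14 ± 0.07 (adjusted p = 0.172), and from 6 to 72 h NECTIN2 fell by 0.30 (adjusted p = 0.00407). In WT that step was 0.16 (adjusted p = 0.105, 0.0444 with series blocked, 0.0304 without series 27-2, 0.0351 without 27-1 at 6 h and 0.0339 without 27-2 at 72 h).

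The difference in response, mut minus WT, was -0.44 ± 0.10 at 72 h (limma-voom adjusted p = 0.00578), -0.46 ± 0.10 from 6 to 72 h (adjusted p = 0.00794) and -0.34 ± 0.10 at 24 h (adjusted p = 0.0340). The first and second stayed called when any 1 library was left out. The value at 24 h was not called without WT 27-2 (adjusted p = 0.0640), 2-1 (0.0566) or 2-2 (0.0538) in solvent, WT 27-1 (0.0812) at 24 h, mut 65-1 (0.0508) or 65-2 (0.0647) in solvent, or mut 1-1 (0.0540), 65-1 (0.0757) or 65-2 (0.0519) at 24 h. With both replications of a clone summed, the adjusted p values of the 3 differences were 0.0712, 0.108 and 0.163 in the same order. TMM scaling kept all 3, at -0.52, -0.52 and -0.43.

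Between genotypes NECTIN2 was higher in mut at 6 h (log2 fold change 0.22 ± 0.07, limma-voom adjusted p = 0.0269) and lower in mut at 72 h (-0.24 ± 0.07, adjusted p = 0.0102). Both calls were lost with the replications of a clone summed (adjusted p = 0.121 at 6 h and 0.0596 at 72 h) and with only the groups compared in the fit (0.102 and 0.0527). The call at 6 h was also lost without WT 2-1 (adjusted p = 0.123) or 2-2 (0.0824) or mut 65-1 (0.0820) or 65-2 (0.0907). In solvent the value was 0.20 (adjusted p = 0.0714) and at 24 h -0.14 (adjusted p = 0.126, and 0.0196 under TMM scaling).

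**Figure D3:**
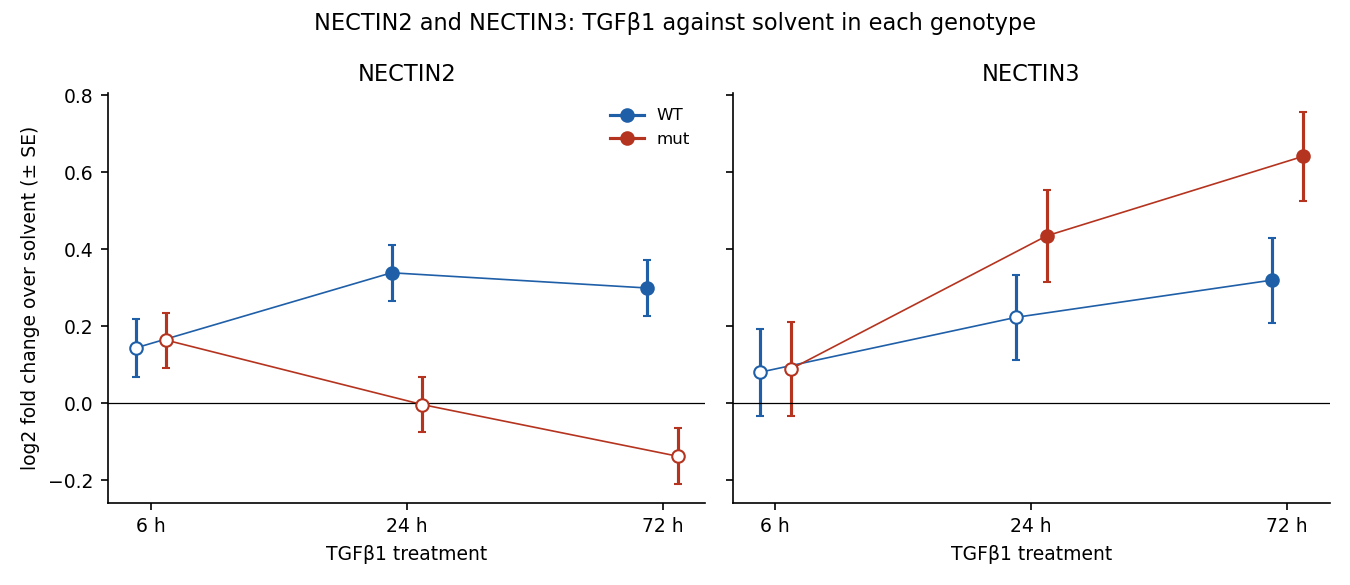
log2 fold change of TGFβ1 over solvent (± SE, 4 libraries per group) of NECTIN2 (left) and NECTIN3 (right) at 6, 24 and 72 h in WT and mut. Filled points were called. The NECTIN2 points part at 24 h and reach 0.30 in WT and -0.14 in mut at 72 h, while both NECTIN3 points at 72 h lie over 0.

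The promoter of NECTIN2 (RefSeq, GRCh38.p14, chr19:44846047-44846346, plus strand) held 1 match to TGACGTCA, the cyclic AMP response element that AP-1 family dimers can also bind. The match is in capitals and begins 1 base after the annotated start base.
NECTIN2: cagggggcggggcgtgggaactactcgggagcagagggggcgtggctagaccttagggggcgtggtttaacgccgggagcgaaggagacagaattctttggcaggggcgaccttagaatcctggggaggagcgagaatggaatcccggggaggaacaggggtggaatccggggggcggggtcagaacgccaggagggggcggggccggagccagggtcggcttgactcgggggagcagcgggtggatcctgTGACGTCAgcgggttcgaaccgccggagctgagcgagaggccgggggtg
No match to TGANTCA or CAGGTG was found in this window. NECTIN3, which has a RefSeq promoter entry too, held none of the 3 motifs, and CADM4 held 2 matches to CAGGTG. CADM1, NECTIN1 and ACKR1 had no entry.

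NECTIN3 (ENSG00000177707, chr3:111070071-111275563, plus strand), the main partner of NECTIN1 across cell borders, rose with TGFβ1 in both genotypes. It was at 24.3, 30.5, 21.1 and 22.8 CPM in WT solvent and at 15.2, 19.5, 18.6 and 17.8 CPM in mut solvent. At 72 h it was at 29.8, 30.1, 30.1 and 31.8 CPM in WT and at 31.2, 29.2, 28.0 and 22.2 CPM in mut. The genotypes were apart in solvent and overlapped at 72 h.

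In mut NECTIN3 rose by a log2 fold change of 0.43 ± 0.12 at 24 h (n = 4 per group, limma-voom adjusted p = 0.00848) and of 0.64 ± 0.12 at 72 h (adjusted p = 0.000138), both without overlap and in 4 of 4 series. In WT it rose by 0.32 ± 0.11 at 72 h (adjusted p = 0.0164) in 3 of 4 series, where 27-2 did not follow, and the call was lost without WT solvent 2-1 (adjusted p = 0.0807). Clone sums lost this call (adjusted p = 0.0627) and the mut call at 24 h (0.0562). At 24 h the WT value was 0.22 (adjusted p = 0.0935), and it was called without series 27-2 (0.0136), without its solvent library alone (0.0173), without 27-1 at 24 h (0.0415) and under TMM scaling (0.00452). The difference between the genotypes in the response was 0.32 ± 0.16 at 72 h (adjusted p = 0.196) and was not called.

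NECTIN3 was lower in mut in solvent, by -0.46 ± 0.12 on the log2 scale (limma-voom adjusted p = 0.00881), and at 6 h by -0.46 ± 0.12 (adjusted p = 0.00520). The solvent call was lost without WT 27-2 (adjusted p = 0.0537) and with the replications of a clone summed (0.0626). At 24 h the value was -0.25 (adjusted p = 0.0756, 0.0369 without WT 27-1 at 24 h and 0.0224 under TMM scaling) and at 72 h -0.14 (adjusted p = 0.303).

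NECTIN4 (ENSG00000143217, chr1:161070998-161089558, minus strand), an epithelial nectin and the target of an antibody-drug conjugate against urothelial cancer, was lower in mut, and it also split WT libraries by replication. In WT solvent it was at 12.5 and 15.6 CPM in the first replications of clones 27 and 2 and at 5.57 and 6.83 CPM in the second. At 72 h these were 26.3 and 19.5 CPM against 9.65 and 11.8 CPM. In mut it was at 6.01, 3.68, 4.02 and 4.67 CPM in solvent and at 7.49, 8.14, 5.34 and 4.67 CPM at 72 h.

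The mut libraries overlapped the second WT replications in solvent and lay below all WT libraries at 24 and 72 h. The log2 fold change of mut over WT was -1.06 ± 0.46 (n = 4 per group, limma-voom adjusted p = 0.132) in solvent, -1.14 ± 0.44 (adjusted p = 0.0661) at 6 h, -1.10 ± 0.40 (adjusted p = 0.0330) at 24 h and -1.28 ± 0.39 (adjusted p = 0.0100) at 72 h. The call at 24 h was lost without WT 27-1 (adjusted p = 0.158) or 2-1 (0.0634) or mut 1-2 (0.0598), 65-1 (0.0874) or 65-2 (0.0704). With the replication number as a block the values were -1.13 (adjusted p = 0.00990) in solvent and -1.25 (adjusted p = 0.00200) at 6 h, and without WT 27-2 at 6 h the value was -1.45 (adjusted p = 0.0184). Clone sums also called NECTIN4 lower in mut in solvent (adjusted p = 0.0160) and at 6 h (0.00535). Within the first replications mean differences were -1.50 in solvent and -1.83 at 72 h, and within the second -0.57 and -0.78. The direction was the same in both, and 2 libraries per group allowed no test there.

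Whether TGFβ1 effects on NECTIN4 were called varied with the fit. Without a block the WT log2 values were 0.55 (limma-voom adjusted p = 0.218) at 24 h and 0.70 (adjusted p = 0.107) at 72 h, higher in 4 of 4 series. With series blocked they were 0.57 (adjusted p = 0.00150) and 0.75 (adjusted p = 7.77e-05), and the step from 6 to 72 h was 0.51 (adjusted p = 0.00481). The WT value at 72 h was called by 7 of 19 alternatives, most of them without pairing by series. Among these were TMM scaling (adjusted p = 0.0489), edgeR (0.0446), DESeq2 (0.0385), clone sums (0.0174) and the replication block (0.0114). Leaving out WT 27-2 at 72 h gave 0.95 (adjusted p = 0.0338). Clone sums also called the WT value at 24 h (adjusted p = 0.0472). In mut the unblocked values were 0.52 (adjusted p = 0.474) at 24 h and 0.49 (adjusted p = 0.498) at 72 h, and the blocked ones 0.51 (adjusted p = 0.0452) and 0.48 (adjusted p = 0.0612). The test of the difference in response at 72 h gave -0.21 ± 0.60 (adjusted p = 0.866).

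The promoter of NECTIN4 (RefSeq, GRCh38.p14, chr1:161089509-161089808, minus strand) is printed for its match to the E-box letters CAGGTG on the other strand, in capitals. The match begins 38 bases before the annotated start base.
NECTIN4: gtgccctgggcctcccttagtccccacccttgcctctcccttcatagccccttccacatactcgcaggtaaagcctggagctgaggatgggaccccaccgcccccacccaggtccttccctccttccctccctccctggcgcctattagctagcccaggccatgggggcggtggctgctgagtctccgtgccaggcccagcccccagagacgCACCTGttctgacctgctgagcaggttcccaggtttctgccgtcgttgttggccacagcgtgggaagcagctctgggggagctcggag
Neither TGANTCA nor TGACGTCA was in this window.

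**Figure D4:**
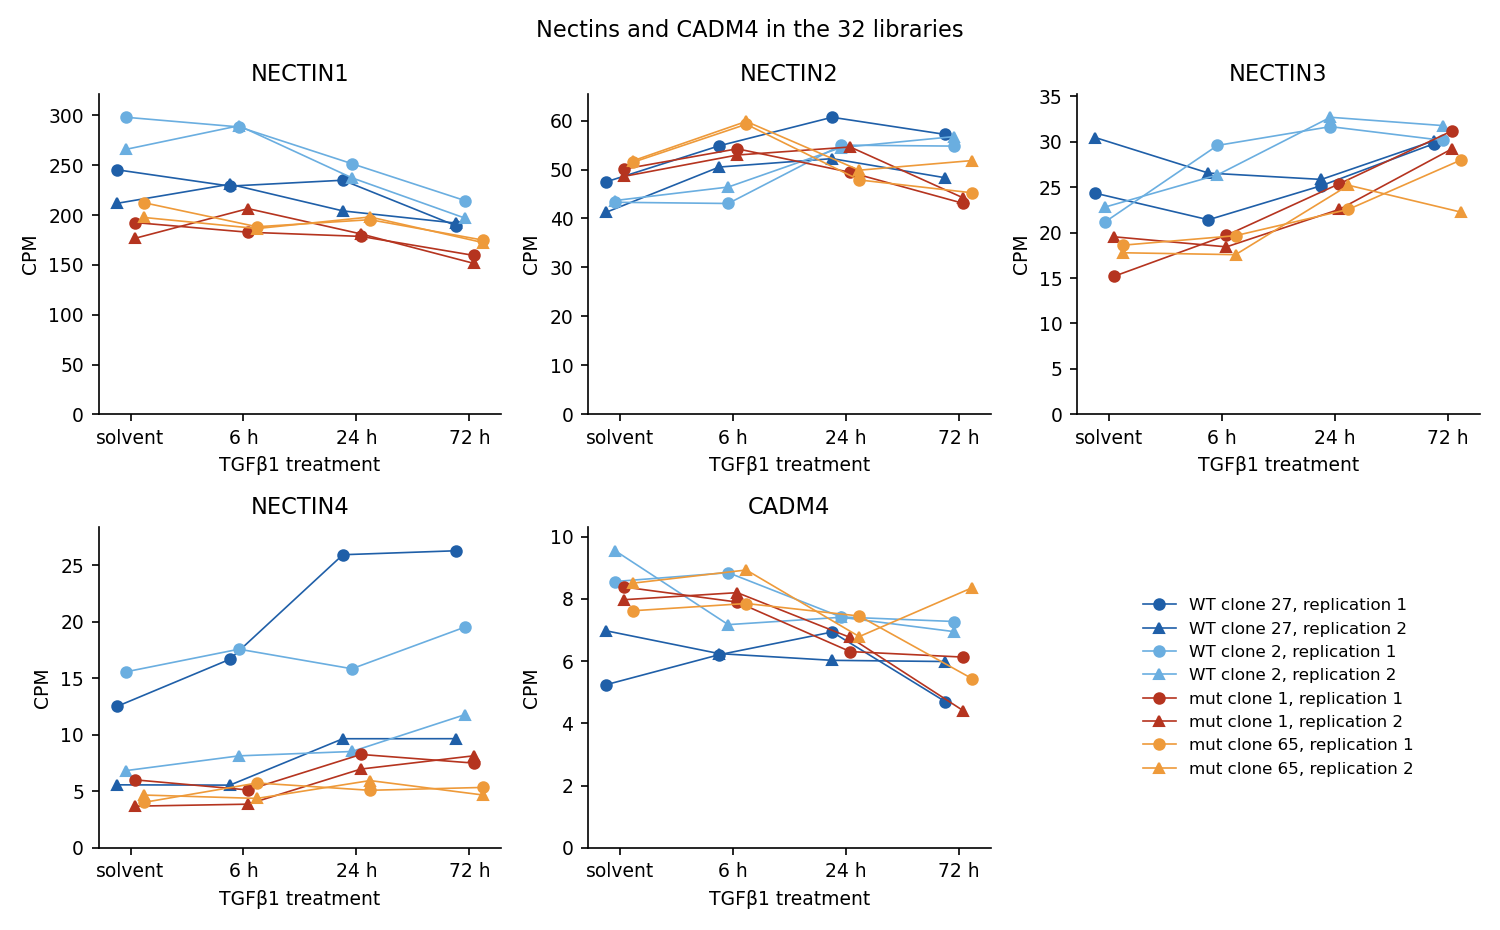
CPM of NECTIN1, NECTIN2, NECTIN3, NECTIN4 and CADM4 (linear axes from 0) by TGFβ1 treatment, each line joining the 4 libraries of a clone and replication. NECTIN1 runs lower in mut, NECTIN2 parts after 6 h, NECTIN3 climbs in both genotypes, and the first WT replications of NECTIN4 reach 26.3 CPM.

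The counts of members called under TGFβ1 were set beside the share of all genes called in the same comparison. Leaving CADM3 out, 0 of the 5 tested members were called in WT at 6 h (limma-voom, 17.0% of all genes, 0 at an unadjusted p under 0.05, 0 by TMM scaling and 1 by edgeR or DESeq2), 1 at 24 h (52.1%, and 2 with series blocked) and 3 at 72 h (52.2%, and 4 with series blocked). In mut they were 0 at 6 h (7.0%, with 1 at an unadjusted p under 0.05 and 0 by edgeR or DESeq2), 1 at 24 h (23.8%, and 2 with series blocked) and 3 at 72 h (24.1%). For the difference in response they were 0 at 6 h (limma-voom, 0.0740%, and 0 at an unadjusted p under 0.05, by edgeR or by DESeq2), 1 at 24 h (9.65%) and 1 at 72 h (12.3%), NECTIN2 in both. Of the 6 members tested from 6 to 72 h, 2 were called in WT (30.8%, and 4 with series blocked), 3 in mut (17.9%, and 4 with series blocked) and 1 for the difference (6.42%, and 2 with series blocked).

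Between genotypes, 2 of the 5 were called in solvent (12.7% of all genes), both lower in mut. At 6 h 3 of the same 5 differed with CADM3 left out (21.4%), as did 2 at 24 h (36.9%) and 3 after 72 h (39.2%). NECTIN2 at 6 h was the one higher in mut, and the other calls were lower in mut.

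**Figure D5:**
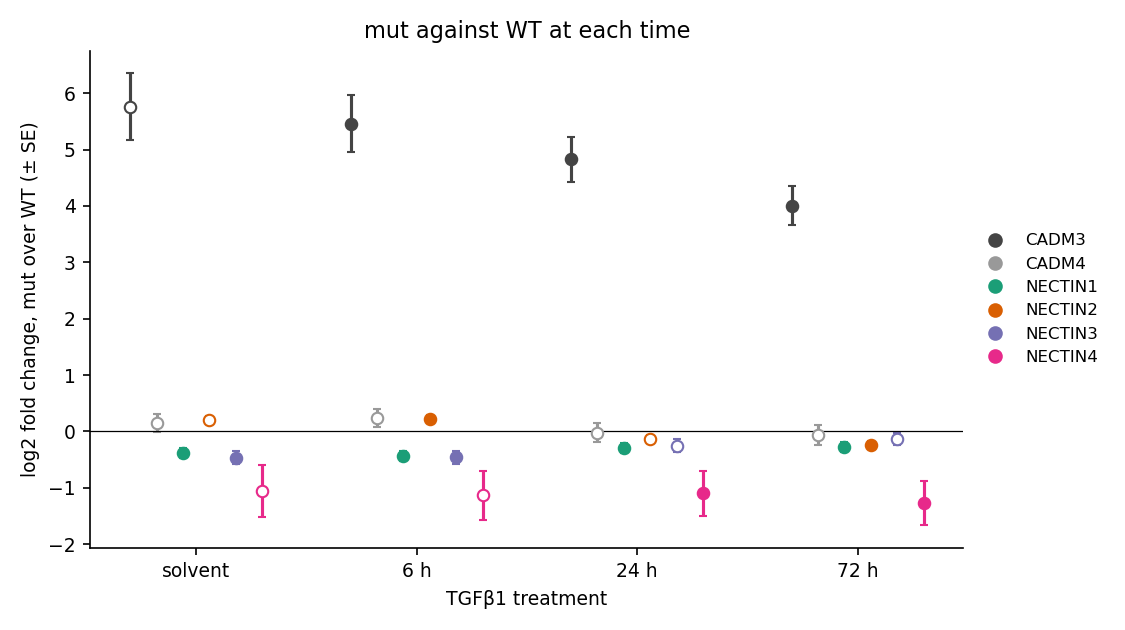
log2 fold change of mut over WT (± SE, 4 libraries per group) of the 6 tested members in solvent and at 6, 24 and 72 h. Filled points were called, and CADM3 in solvent is open because it was not tested. CADM3 is at 5.76 in solvent, which restates how it was chosen, and at 5.46, 4.83 and 4.01 at 6, 24 and 72 h. The difference between the genotypes in its change from 6 to 72 h was not called (limma-voom adjusted p = 0.155). NECTIN4 lies between -1.06 and -1.28.

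Per kilobase of exon, CADM3 changed place in the order of the family. Values here are CPM divided by the length of all exons in kilobases (RPKM, mean ± SD, n = 4). In WT solvent the order was NECTIN1 (32.7 ± 4.6), NECTIN2 (11.7 ± 0.69), CADM4 (3.36 ± 0.84), NECTIN3 (3.20 ± 0.53), NECTIN4 (2.93 ± 1.4), CADM3 (0.479 ± 0.29) and CADM1 (0). The ranges of CADM4, NECTIN3 and NECTIN4 overlapped. In mut solvent CADM3 (22.5 ± 5.8) lay next to NECTIN1 (24.9 ± 1.9) with overlapping ranges and over NECTIN2 (13.5 ± 0.39). The shift of CADM3 between the solvent groups restates how it was chosen. At 24 and 72 h in mut CADM3 led, with 28.9 ± 2.7 against 21.1 ± 1.4 for NECTIN1 at 72 h and no overlap. In WT at 72 h CADM3 was at 2.26 ± 1.5 and overlapped CADM4.

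The genes that carry CADM and nectin tails inside the cell were compared as lists. Of 17 genes of the nectin and afadin junction, all tested, 0 were called between genotypes in solvent by limma-voom (12.7% of all genes), edgeR or DESeq2, and 6 had an unadjusted p under 0.05. In WT at 72 h 7 were higher and 3 lower (52.2% of all genes called, median log2 fold change 0.02, all genes -0.19), and in mut at 72 h 1 was higher and 3 lower (24.1% of all genes called, median -0.10, all genes -0.09), so both counts lay near the share of all genes. N-cadherin (CDH2) rose in both, by 1.65 in WT and 1.28 in mut, E-cadherin (CDH1) fell in both, by 0.65 and 0.77, although the WT fall was not called under TMM scaling. AFDN, the afadin gene itself, fell in mut by 0.42 (limma-voom adjusted p = 0.00173). PLEKHA7 (-0.82) and SSX2IP (-0.56), a pair of afadin-linked scaffold genes, fell in WT, where CTNNB1 (β-catenin, 0.36) and IQGAP1 (0.27) rose. The difference in response at 72 h was called for 3 of the 17 (12.3% of all genes), TJP1 (-0.38), CTNNA1 (-0.25) and CTNNB1 (-0.42), and was negative for each.

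Of the 12 CADM tail partners, 11 were tested. In mut solvent (12.7% of all genes called) 1 was higher, EPB41L1, which encodes the protein 4.1N that binds CADM tails. In solvent it averaged 16.6 CPM in WT libraries against 43.4 CPM in mut libraries, a log2 difference of 1.41 ± 0.15 (limma-voom adjusted p = 1.28e-07), and 1 was lower, EPB41L2 (-0.39, adjusted p = 0.0408). The list's median was -0.04 against -0.01 for all genes. In WT at 72 h 2 were higher and 3 lower (52.2% of all genes called, median -0.16, all genes -0.19), with FARP1 at 0.23 and TIAM1 at -0.41, of which the falls were not called under TMM scaling. In mut at 72 h 2 were called (24.1% of all genes), both lower (EPB41 -0.25, DLG1 -0.21, neither called under TMM scaling).

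The proteases that can shed these molecules formed another list. Of 7 such genes (ADAM and γ-secretase genes), 0 were called between genotypes in solvent by limma-voom (12.7% of all genes), edgeR or DESeq2, and 3 had an unadjusted p under 0.05. In WT at 72 h 2 were higher and 2 lower (52.2% of all genes called), with APH1A at -0.31, and in mut 1 was higher (ADAM10, 0.19) and 1 lower (APH1A, -0.16), where 24.1% of all genes were called. Of 7 relatives and immune partners, 4 were tested. In WT at 72 h 1 was called (52.2% of all genes), PVR, the nectin-like poliovirus receptor (0.39, limma-voom adjusted p = 0.000420).

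Other immunoglobulin superfamily adhesion genes made up the last list. Of 22, 19 were tested, with 4 higher and 2 lower in mut solvent (12.7% of all genes called, median -0.04, all genes -0.01). In WT at 72 h 4 were higher and 5 lower (52.2% of all genes called, median -0.03), and in mut at 72 h 4 were higher and 6 lower (24.1%, median -0.11). BCAM, a laminin receptor, was higher in mut solvent by 1.56 ± 0.16 (limma-voom adjusted p = 6.06e-08) and at 72 h WT fell by 2.34 whereas mut fell by 2.47. MCAM rose by 2.09 in WT and 1.64 in mut. ICAM1 was higher in mut solvent by 0.82 and differed in response at 72 h by -1.07 (adjusted p = 0.0120), and L1CAM was lower in mut solvent by 0.87 (adjusted p = 0.00698).

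Likeness to each member was ranked by Pearson r of log2 CPM across the 32 libraries over 12458 genes, as a description of libraries that share clones, times and depth. CADM3 was followed by ACKR1 (0.987), DUSP23 (0.919) and MT1X (0.902), and SEMA3A was the most opposite (-0.953). Within genotypes only ACKR1 of these stayed over 0.8, since DUSP23 fell to 0.371 in WT and 0.448 in mut and MT1X to 0.010 and 0.122. NECTIN1 was followed by CEMIP (0.890), NOTCH3 (0.879) and MAPKBP1 (0.876), with COL8A1 at -0.904. NECTIN2 was followed by PNPLA2 (0.823), RNPEPL1 (0.817) and OS9 (0.781), with ZNF280D at -0.813.

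NECTIN3 was followed by EFNB2 (0.908), TIPARP (0.904) and NT5E (0.893), with ABHD16A at -0.926, and these held within both genotypes (0.778 or more in size). NECTIN4 was followed by CTSV (0.898), TTC9 (0.891) and SAMD9 (0.877), with CXXC5 at -0.864, and TTC9 was at 0.162 in mut alone. CADM4 was followed by ICAM5 (0.759), EEF1A1 (0.747) and NICN1 (0.745), with GREB1L at -0.697. Among the members, NECTIN1 and CADM3 were at -0.797 across all libraries, -0.654 in WT and 0.019 in mut. NECTIN3 and CADM4 were at -0.851 in mut and -0.114 in WT.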

How the data were processed

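Total RNA was made into libraries with the TruSeq RNA Sample Prep Kit v2, which does not mark strand, and sequenced as 150 bp read pairs. The authors trimmed reads with Trimmomatic, mapped them to Ensembl GRCh38 and counted reads per gene with STAR. The strand setting, versions and annotation release are not given in the sources used here. The deposited values are whole-number counts per gene, and depth ran from 39702412 to 54651906 counts. Gene symbols and coordinates came from GENCODE release 44 (17763 of 17788 identifiers had a symbol). PCR duplicates were not marked by molecular identifiers.

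The main test followed the methods of the study: voom on library sizes without further scaling factors, a model of the 8 conditions and empirical Bayes moderation (limma 3.58.1, R 4.3.3). Low genes were removed with filterByExpr from edgeR 4.0.16, whose count minimum was 10 and whose total minimum was 15. A difference in response is the mut change minus the WT change. The steps were tested on simulated data. Alternatives were TMM factors, the edgeR quasi-likelihood test, DESeq2 1.42.0, no filter, a mean count of at least 50, the groups of a comparison alone, clone sums, a minimum absolute log2 fold change of 1, culture series or replication number as a block, and leaving out libraries or the series 27-2 or 1-2.

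Libraries of a series share the clone and the replication number in the labels, so series pair the libraries within a genotype. Deviations from group means had a mean r of 0.346 within series (0.0225 to 0.721 over 48 pairs), against 0.0183 between replications of a clone. No pair of libraries in a group agreed within sampling noise (chi-square per degree of freedom 11.6 or more).

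Named genes were the members, JUNB, the genes overlapping a member or within 500 kb of CADM3, the largest called changes of each list (at most 3 up and 3 down, mean of at least 1 CPM), and the 3 most and 1 least correlated genes (prior count 2). TJP1, CTNNA1, DUSP23, CRP and IGSF9 were named after their values were seen. Single values of some list genes are not reported here. Members and lists were chosen with earlier results of these data known.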

Additional observations from a re-analysis of the deposited data

Results flagged for a closer look

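The response of NECTIN2 to TGFβ1 was called different between the genotypes by a test of the difference itself. The log2 fold change in mut minus that in WT was -0.34 ± 0.10 at 24 h (limma-voom adjusted p = 0.0340), -0.44 ± 0.10 at 72 h (adjusted p = 0.00578) and -0.46 ± 0.10 from 6 to 72 h (adjusted p = 0.00794). Solvent libraries are shared by the values at 24 and 72 h, and the libraries at 72 h by the last 2 values. With the replications of a clone summed, none of these values was called (limma-voom adjusted p = 0.163, 0.0712 and 0.108). The value from 6 to 72 h was also not called with only its groups in the fit (adjusted p = 0.0504). Across the 48 groups of 4 libraries with a count in every library, 0 held a library that stood apart from the other 3 by the gap criterion, which chance meets in about 1 of 20 groups.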

How the results depend on the processing

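Counts are of members called, and those for mut against WT at 6, 24 and 72 h include CADM3. TMM factors gave 2 for WT at 24 h, 1 for mut at 72 h, 5 for mut against WT at 24 h and 4 for WT from 6 to 72 h, and both edgeR and DESeq2 gave the same 4 counts, 1 for WT at 6 h and, by DESeq2, 2 for the difference in response from 6 to 72 h. Fitting the groups of a comparison alone gave 1 for WT from 6 to 72 h and 0 for the difference from 6 to 72 h (NECTIN2, adjusted p = 0.0504). With the replications of a clone summed, counts were 2 for WT at 24 h, 0 for mut at 24 h, 1 for mut at 72 h, 1 for mut against WT in solvent (NECTIN4, gained, while NECTIN1 and NECTIN3 were lost), 2 at 72 h, and 0 for the differences in response at 24 h, at 72 h and from 6 to 72 h, where 2 clones per genotype leave fewer samples. Calls that also needed an absolute log2 change of 1 or more came to 0 for WT and mut at 24 and 72 h, 0 for mut against WT in solvent, 1 at 6 h, 2 at 72 h, 0 for all differences in response, 1 for WT and 0 for mut from 6 to 72 h. The replicate block on series gave 2 for WT at 24 h, 4 for WT at 72 h, 2 for mut at 24 h, 4 for WT and 4 for mut from 6 to 72 h and 2 for the difference from 6 to 72 h. The block changed no call of a member other than those given beside the results. Without series 27-2 the count for WT at 24 h was 2, and without series 1-2 that for mut at 72 h was 1.

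Leaving out 1 library at a time gave 1 to 3 for WT at 24 h, 1 to 3 for mut at 72 h, 1 to 2 for mut against WT in solvent, 0 to 1 for the difference at 24 h, 1 to 2 for WT from 6 to 72 h and 1 to 2 for the difference from 6 to 72 h. The difference in CADM3 response at 6 h, not tested, was -0.31 and ran from -0.63 to 0.028, over 0 without WT solvent 27-1. CADM3 in mut against WT in solvent ran from 5.43 to 6.09 over all alternatives. Causes of these shifts were not tested. Of the single-member values under alternatives, 1768 kept direction and call, 83 lost a call, 55 gained one and 86 changed sign, of which 0 were called before or after. The design holds 2 clones per genotype, and depth limits CADM1.

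The sign changes lay near 0 on the log2 scale. Against solvent in WT, CADM4 was at 0.011 at 6 h under TMM factors and at 0.091, 0.054 and 0.057 at 24 h by TMM, edgeR and DESeq2, and NECTIN1 at 24 h was at 0.046, 0.040 and 0.043 by the same 3. In mut they put NECTIN1 at 0.028, 0.025 and 0.032 at 6 h and at 0.039, 0.036 and 0.048 at 24 h, and NECTIN2 at 0.083, 0.084 and 0.096 at 24 h. They put the difference in response of NECTIN3 at 6 h at -0.013, -0.0059 and -0.0056. That of NECTIN2 at 6 h was -0.0041 by edgeR and -0.0033 by DESeq2, and that of NECTIN1 at 24 h was -0.0073 by TMM and -0.0039 by edgeR. Without series 27-2, NECTIN1 in WT at 6 h was at -0.0080 and the differences in response were -0.078 for NECTIN3 at 6 h and 0.026 for NECTIN4 at 24 h. Without series 1-2, CADM4 in mut against WT at 72 h was at 0.093.

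With 1 library left out, CADM4 ran from -0.24 to 0.054 in WT at 6 h, from -0.27 to 0.032 in WT at 24 h and from -0.026 to 0.043 in mut at 6 h. Its mut against WT values ran from -0.032 to 0.27 in solvent, from -0.087 to 0.018 at 24 h and from -0.22 to 0.093 at 72 h, and its differences in response from -0.035 to 0.26 at 6 h and from -0.29 to 0.011 at 24 h. NECTIN1 ran from -0.061 to 0.10 in WT and from -0.073 to 0.015 in mut at 6 h, and from -0.13 to 0.034 for the difference. NECTIN2 ran from -0.042 to 0.021 in mut at 24 h and from -0.033 to 0.078 for the difference at 6 h, where NECTIN3 ran from -0.093 to 0.079. NECTIN4 ran from -0.097 to 0.46 in WT and from -0.034 to 0.20 in mut at 6 h, and its differences in response from -0.39 to 0.16 at 6 h, from -0.28 to 0.32 at 24 h, from -0.46 to 0.045 at 72 h and from -0.38 to 0.18 from 6 to 72 h.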
